A study of Sus scrofa with 48 samples.

Results

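The genes described here are 10 regulators of apoptosis in the whole blood of growing pigs. They comprise the survival genes BCL2, BCL2L1 and MCL1, the inhibitors of apoptosis BIRC2, BIRC3 and XIAP, the caspase-8 regulator CFLAR, and the death genes BCL2L11, BAX and BAK1. A spot of the array was taken when the gene name in the scanner files was that of a gene of the list and when the authors had retained the spot. By this rule 9 of the 10 genes were found, on 22 of the 37113 retained spots. MCL1 had 7 spots, BCL2L11 had 4, BAX and XIAP had 3 each, BCL2, BCL2L1, BAK1, BIRC2 and BIRC3 had 1 each, and CFLAR had 0. Probes carrying the older name C-FLIP, which a RefSeq transcript accession assigns to CFLAR, were used for that gene as an alternative.

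Blood was collected at 132 days of age from 48 castrated male Large White pigs of a low and a high line for residual feed intake (RFI), that is, feed intake beyond what maintenance and production require. The 4 groups of 12 pigs were low RFI HF (HF_RFIneg), low RFI LF (LF_RFIneg), high RFI HF (HF_RFIpl) and high RFI LF (LF_RFIpl). HF stands for a high fat, high fiber diet in which straw and oil replaced part of the cereals, and LF for a low fat, low fiber diet. Each pig gave 1 single-colour array. The 6 slides held 8 arrays each, with 2 arrays of every group on every slide, and the retained spots were at a median of 5.91 to 16.0 times the local background, depending on the array. Values are log2 intensities with the array median at 0, so that a value shows the level of a transcript relative to the other transcripts of that blood sample. In whole blood, a change in the proportion of a cell type and a change in RNA per cell cannot be told apart.

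Apoptosis through mitochondria depends on the balance between members of the BCL2 family. BCL2, BCL2L1 (BCL-XL) and MCL1 hold back BAX and BAK1, which permeabilize the outer mitochondrial membrane, and BCL2L11 (BIM) is a BH3-only protein that binds the survival members. The IAP proteins act further down: XIAP blocks caspases, while BIRC2 and BIRC3 are ubiquitin ligases of TNF receptor signaling. In blood, neutrophils are known for their need of MCL1, maturing red cells for their need of BCL2L1, and lymphocytes for being limited by BCL2L11.

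The probes decide what is measured, and their sequences are therefore given first for the spots on which the comparisons turn. Only part of a probe is printed where it may lie outside the coding sequence. The single probes of BCL2 (A_72_P310853), BCL2L1 (O14563), BIRC2 (O14365) and BIRC3 (A_72_P289744) and the brightest probe of MCL1 (A_72_P035761) start, from base 1 to base 30, as follows:
BCL2: aaaccttctggttggtagggacatctactt
BCL2L1: ttgaaatagtctgtgtgaaggtgaaagtgc
BIRC2: ttatataacgtaaagttaatttctttaaaa
BIRC3: gctgtatggaacagaaagaagtacctgtgt
MCL1: gtgggctgtaaaaagtagtgtgtttcccta

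The BAX probes O1895 and A_72_P367598 are the same 60 bases, so that they are repeated measurements of 1 target. The BAK1 probe O9678 is likewise present on another spot (A_72_P306303), which the files name BAK. For XIAP, the whole probe A_72_P443159 is shown because it carries the clearest pattern across pigs of the 3 probes.
BAX: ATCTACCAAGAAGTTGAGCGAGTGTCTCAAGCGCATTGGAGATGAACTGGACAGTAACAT
BAK1: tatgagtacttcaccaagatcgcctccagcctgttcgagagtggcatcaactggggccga
XIAP: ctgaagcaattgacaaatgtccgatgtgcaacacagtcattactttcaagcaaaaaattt

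A pair of BCL2L11 probes overlaps by 54 bases, shown in capitals, and is therefore not a pair of independent readings of the transcript.
BCL2L11 A_72_P405993: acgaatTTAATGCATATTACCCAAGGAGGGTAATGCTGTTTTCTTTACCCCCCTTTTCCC
BCL2L11 A_72_P441021: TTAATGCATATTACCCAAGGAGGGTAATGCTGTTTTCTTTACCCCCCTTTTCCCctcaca
The MCL1 probe O8707 is the reverse complement of a further MCL1 spot (A_72_P518010), which the authors did not retain, over the 57 bases in capitals. These probes read opposite strands of the same stretch. A_72_P518010 holds the coding strand, with the start codon ATG and the bases after it, so that O8707 holds the antisense strand.
MCL1 O8707: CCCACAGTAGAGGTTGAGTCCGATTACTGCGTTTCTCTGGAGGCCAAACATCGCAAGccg
MCL1 A_72_P518010: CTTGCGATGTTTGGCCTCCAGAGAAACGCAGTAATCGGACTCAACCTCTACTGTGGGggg

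None of the 22 probes was called for the line, the diet or their interaction at an adjusted P-value under 0.05 (limma, BH adjustment over all retained probes). Over all probes, 2.77% were called for the line, 0% for the diet and 0% for the interaction. At an unadjusted P-value under 0.05, limma gave 2 of the 22 probes for the line, against 12% of all probes. Both are named MCL1: A_72_P475140 and the antisense probe O8707. For the diet limma gave 0 of the 22, against 1.64% of all, and for the interaction 0 of the 22, against 2.28% of all. The analysis of variance of each probe gave 0 adjusted calls and these same numbers of unadjusted ones. The lowest adjusted P-value among the 22 probes was 0.228 for the line, 1 for the diet and 0.902 for the interaction. Of the line differences, 14 of 22 were negative, beside 41.4% of all probes, with a median of -0.07 on the log2 scale beside a median of 0.02 over all probes. The group values of the survival and death genes overlapped for every gene of the list.

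**Figure D1:**
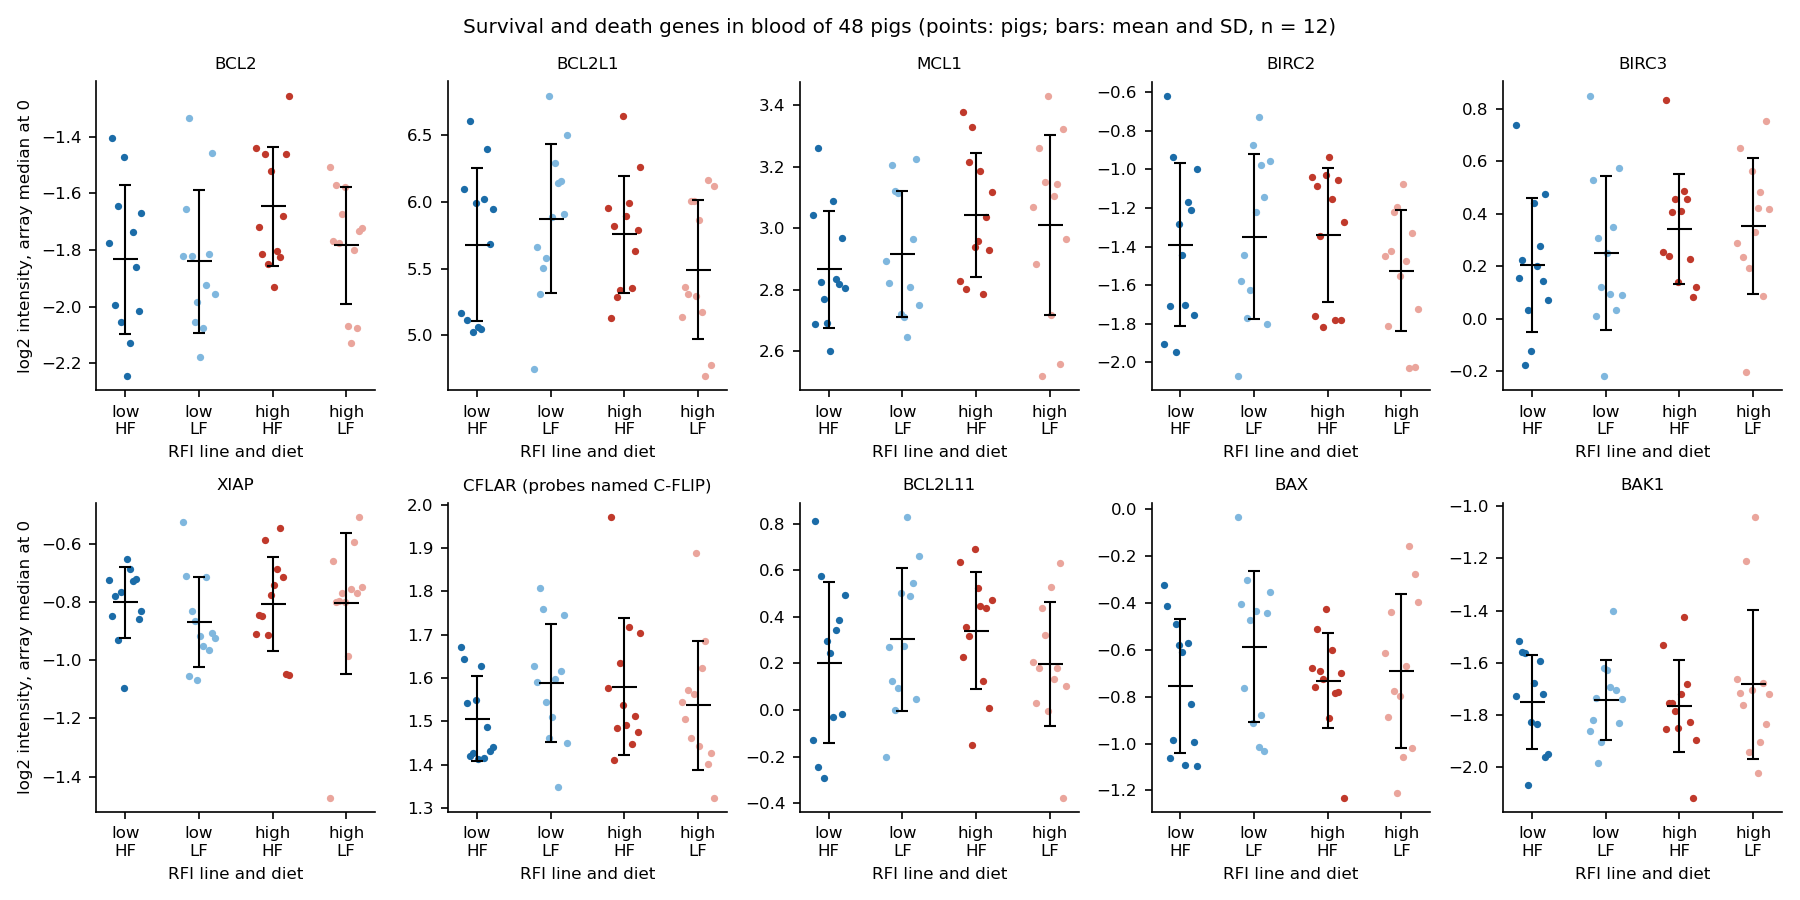
Log2 intensity (array median at 0) of each gene in the 12 pigs of each of the 4 groups, as points, with the group mean and SD in black. The survival genes come first and the death genes BCL2L11, BAX and BAK1 last, CFLAR is shown through the probes named C-FLIP, and the points of the 4 groups overlap in every panel.

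MCL1 encodes a short-lived survival protein. Its gene value, the mean of the 7 probes, ran from 2.60 to 3.26 with a median of 2.82 in low RFI HF pigs and from 2.65 to 3.22 with a median of 2.86 in low RFI LF pigs. It ran from 2.79 to 3.38 with a median of 3.0 in high RFI HF pigs and from 2.52 to 3.43 with a median of 3.09 in high RFI LF pigs. The medians of both low RFI groups were thus below those of both high RFI groups, but the ranges overlapped and the lowest pig of all was a high RFI pig. The line difference of MCL1 was -0.14 on the log2 scale (SE 0.07, 95% interval from -0.268 to -0.0033, n = 24 pigs per line), that is a fold of 0.91, with a P-value of 0.0447 and an adjusted P-value of 0.406 by limma, so that it was not called. Over gene values 2.73% were called for the line. The 7 probes of MCL1 had negative differences, from -0.18 to -0.10, although A_72_P423944 and A_72_P592644 share 57 bases and are not separate readings, and 18 of the 24 low RFI pigs lay below the median of the high RFI line. The probe with the lowest P-value was A_72_P475140, with -0.18 (SE 0.07), an unadjusted P-value of 0.0167 and an adjusted P-value of 0.228 by limma. The second was O8707, the antisense probe, with -0.13 (SE 0.06) and an adjusted P-value of 0.316. Without O8707, an alternative chosen after seeing the data, the MCL1 difference was -0.14 with a P-value of 0.0577 by limma, no longer under 0.05. On 5 of the 6 slides the mean of 4 low RFI pigs was below that of 4 high RFI pigs, with differences from -0.39 to 0.15.

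BCL2, the founding survival member of the family, was measured on a single dim probe with a median of 4.03 times the local background. Its value ran from -2.25 to -1.40 (median -1.82) in low RFI HF pigs and from -2.18 to -1.34 (median -1.87) in low RFI LF pigs. In high RFI HF pigs it ran from -1.93 to -1.25 (median -1.70) and in high RFI LF pigs from -2.13 to -1.51 (median -1.75). The lower medians again belonged to both low RFI groups, within overlapping ranges. The line difference was -0.12 on the log2 scale (SE 0.07, 95% interval from -0.26 to 0.01), with a P-value of 0.0786 and an adjusted P-value of 0.549 by limma, and 17 of the 24 low RFI pigs lay below the median of the high RFI line. The size depended on the signal used: with the local background subtracted it was -0.26 (SE 0.10, P-value 0.0136, adjusted P-value 0.192 by limma) after centring on the array median and -0.27 (SE 0.10, P-value 0.0102, adjusted P-value 0.157) after scaling to the 75th percentile. On 5 of 6 slides it was negative, from -0.24 to 0.01. Under the HF diet the difference was -0.19 (SE 0.10, adjusted P-value 0.631 by limma) and under the LF diet -0.06 (SE 0.10, adjusted P-value 0.867), with an interaction of -0.13 (95% interval from -0.40 to 0.14).

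BCL2L1 was the gene of the list with the widest spread between pigs, 2.11 on the log2 scale or a 4.31-fold range. It ran from 5.02 to 6.61 (median 5.82) in low RFI HF, from 4.75 to 6.80 (median 5.90) in low RFI LF, from 5.13 to 6.65 (median 5.80) in high RFI HF and from 4.69 to 6.16 (median 5.33) in high RFI LF pigs. The high RFI LF group had the lowest median, and the interval from 5.13 to 6.16 lay within the range of all 4 groups. Over both diets low RFI pigs differed from high RFI pigs by 0.15 on the log2 scale (SE 0.15, 95% interval from -0.14 to 0.45, adjusted P-value 0.874 by limma). The line difference was -0.08 (SE 0.21) in HF pigs and 0.38 (SE 0.21) in LF pigs, with an interaction of -0.46 (SE 0.29, 95% interval from -1.05 to 0.13, adjusted P-value 0.892 by limma). By slide the line difference ran from -0.16 to 0.72, and it was positive on 5 of the 6 slides. The mean of the erythroid markers was also lowest in high RFI LF pigs, with 2.98 ± 0.37 (SD, n = 12) against 3.29 to 3.31 in the other groups. The part of red cell RNA in this pattern was not tested.

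The IAP genes showed smaller or similar differences. BIRC3 ran from -0.18 to 0.74 (median 0.18) in low RFI HF and from -0.22 to 0.85 (median 0.19) in low RFI LF pigs. It ran from 0.08 to 0.83 (median 0.33) in high RFI HF and from -0.20 to 0.76 (median 0.38) in high RFI LF pigs. Its line difference was -0.12 (SE 0.07, 95% interval from -0.27 to 0.03, P-value 0.111, adjusted P-value 0.642 by limma). Of the 24 low RFI pigs, 18 lay below the median of the high RFI line, and 5 of 6 slides were negative. BCL2 and BIRC3 both stand in a gene list that the study drew from its own line comparison of these pigs, so that their direction is not independent evidence. BIRC2 differed by 0.06 (SE 0.11, 95% interval from -0.15 to 0.28) on its single probe, with 12 low RFI pigs above and 12 below the median of the high RFI line. XIAP differed by -0.03 (SE 0.05, 95% interval from -0.14 to 0.08) as the mean of 3 probes, of which A_72_P146916 and A_72_P443159 differed by -0.07 (SE 0.06) and -0.07 (SE 0.08) and the dim CUST_68_PI427286967 by 0.05 (SE 0.09). Without this last probe the XIAP difference was -0.07 (SE 0.07).

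For CFLAR, which encodes the inhibitor of caspase-8 activation c-FLIP, 5 retained probes named C-FLIP were assigned by accession. Their mean ran from 1.32 to 1.97 over the 48 pigs, and the line difference was -0.01 on the log2 scale (SE 0.04, 95% interval from -0.10 to 0.07, adjusted P-value 0.982 by limma). The diet difference was -0.02 (SE 0.04), the interaction -0.13 (SE 0.09), and the group means ranged from 1.51 in low RFI HF to 1.59 in low RFI LF pigs.

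Among the death genes, BAX ran from -1.10 to -0.32 (median -0.72) in low RFI HF, from -1.03 to -0.03 (median -0.46) in low RFI LF, from -1.23 to -0.42 (median -0.71) in high RFI HF and from -1.21 to -0.15 (median -0.72) in high RFI LF pigs. The low RFI LF group was the highest by its median, and all ranges overlapped. The line difference of BAX was 0.04 (SE 0.08, 95% interval from -0.13 to 0.21), and the within-slide differences ran from -0.17 to 0.44 with 3 of 6 negative. BAK1 differed by -0.02 (SE 0.06, 95% interval from -0.14 to 0.10), and its highest value, -1.04, belonged to high RFI LF replicate 7. When the spot named BAK was averaged with the BAK1 probe, the difference was -0.01 (SE 0.05).

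BCL2L11 as the mean of 4 probes differed by -0.02 between the lines (SE 0.08, 95% interval from -0.19 to 0.15), but this mean joined probes that did not vary together. The overlapping pair A_72_P405993 and A_72_P441021 correlated at 0.95 across pigs (Pearson's r of deviations from group means, n = 48), while O9714 correlated with them at -0.57 and -0.53. The line differences of the pair were 0.06 (SE 0.19) and 0.07 (SE 0.20), that of O9714 was -0.06 (SE 0.08), and that of the dim probe A_72_P206492 was -0.14 (SE 0.09). The pair spread widely, with A_72_P441021 from 0.06 to 2.72 over all pigs, and was not called for any effect.

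**Figure D2:**
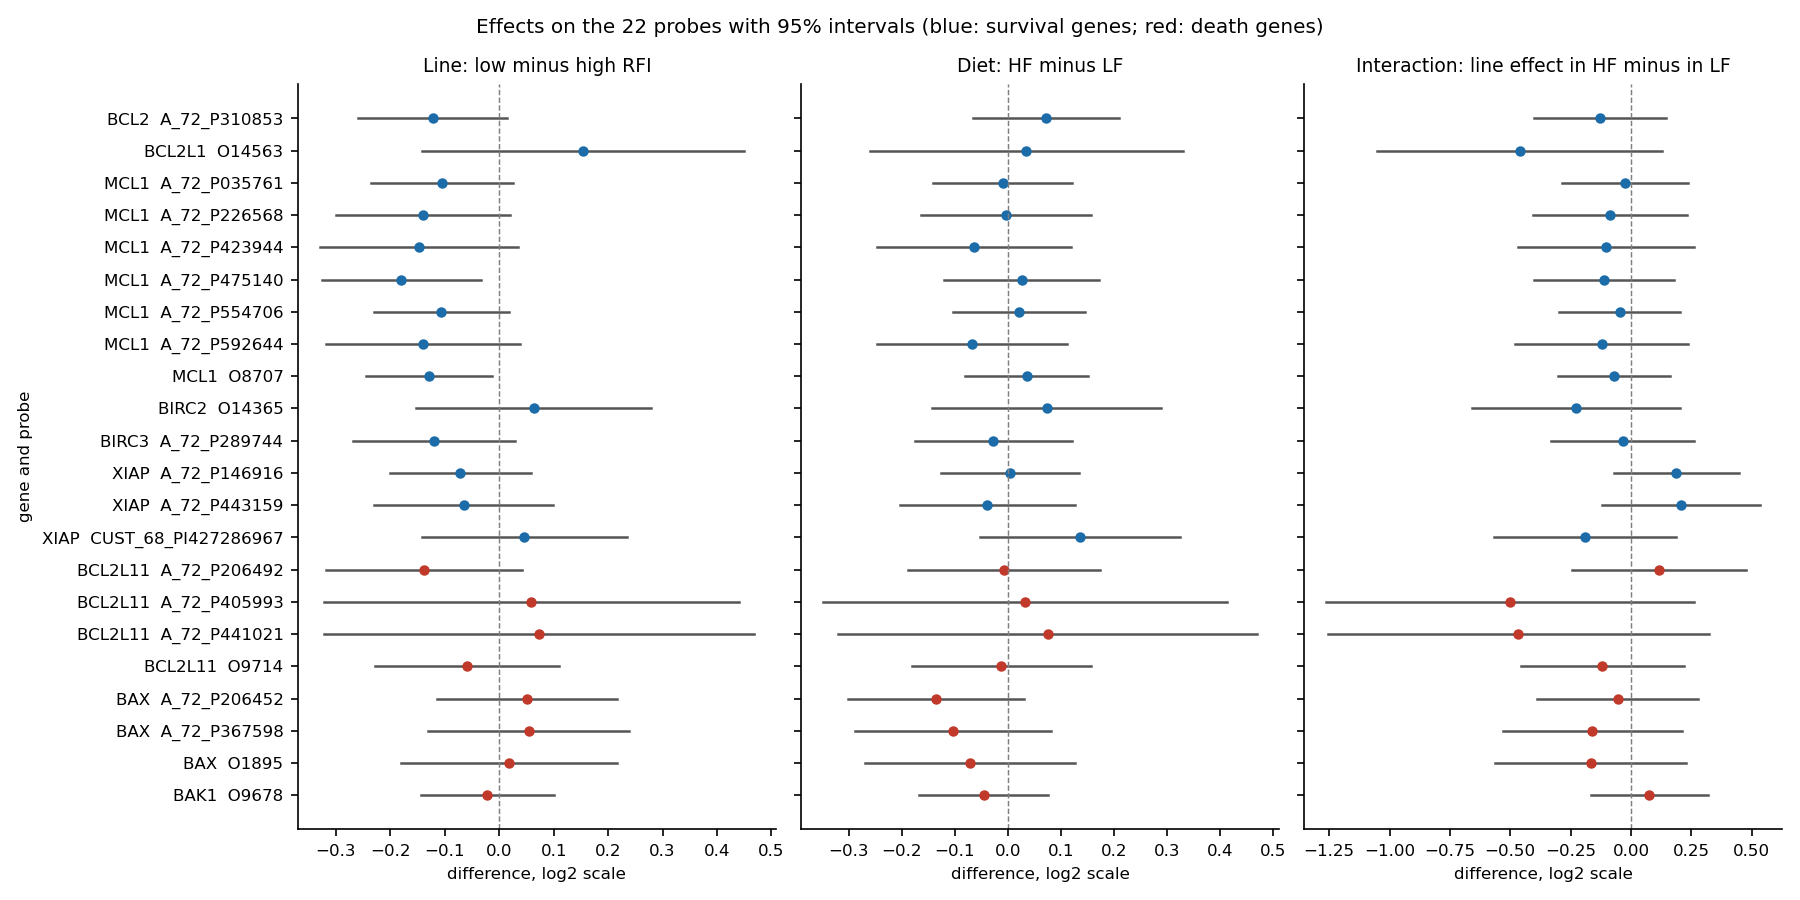
Line, diet and interaction effect of each of the 22 probes on the log2 scale (points) with 95% intervals (lines), survival genes in blue and death genes in red. The 7 MCL1 probes lie at -0.18 to -0.10 in the line panel, and the intervals of BCL2L1 and of the overlapping BCL2L11 pair are the widest.

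The diet differences were small for all 9 genes. The largest in size were BAX, with -0.10 (SE 0.08, 95% interval from -0.27 to 0.06), BIRC2, with 0.07 (SE 0.11), and BCL2, with 0.07 (SE 0.07), in HF minus LF pigs. MCL1 differed by -0.01 between the diets (SE 0.07, 95% interval from -0.14 to 0.12) and BCL2L1 by 0.04 (SE 0.15, 95% interval from -0.26 to 0.33). With limma, the adjusted P-value of each of the 9 genes for the diet was 1. Within the low RFI line 16 of the 22 probes were lower in HF pigs, beside 47.3% of all probes, and within the high RFI line 9 were, beside 49.7%. Limma called 0 of the 22 in either line, and 0% of all probes.

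The line effect was also taken within each diet. Among HF pigs limma gave 2 unadjusted calls (P-value under 0.05) and 0 adjusted calls out of 22, with a lowest adjusted P-value of 0.432, beside 8.77% of all probes unadjusted and 0.773% adjusted. Among LF pigs it gave 0 unadjusted and 0 adjusted, with a lowest adjusted P-value of 0.731, beside 7.45% and 0.574% of all probes. Of the 22 interaction terms, 18 were negative, beside 47.8% of all probes, with a median of -0.11 beside 0.01 over all probes. The interaction terms of 7 of 7 erythroid (median -0.31), 5 of 5 neutrophil (median -0.73), 3 of 4 monocyte (median -0.25) and 2 of 4 platelet markers (median -0.09) were negative. Those of 4 of 5 B cell (median 0.17), 6 of 7 T cell (median 0.07) and 4 of 5 NK cell markers (median 0.05) were positive, with 0 of all these markers called by limma. The part of these cells in the interaction terms was not tested.

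The balance of a survival gene and a death gene was described by BCL2 minus BAX per pig, of which only differences between pigs are meaningful because the probes differ in brightness. In the low RFI line this quantity averaged -1.08 ± 0.33 on the HF diet and -1.25 ± 0.39 on the LF diet. In the high RFI line it averaged -0.92 ± 0.33 on the HF diet and -1.09 ± 0.33 on the LF diet (each with SD, n = 12). The mean of low RFI minus that of high RFI pigs was -0.16 on the log2 scale, against a within-group SD of 0.34. With the local background subtracted it was -0.31, against an SD of 0.45. The ranges of the lines were -1.79 to -0.57 and -1.65 to -0.02, so that the lines overlapped over most of their length.

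**Figure D3:**
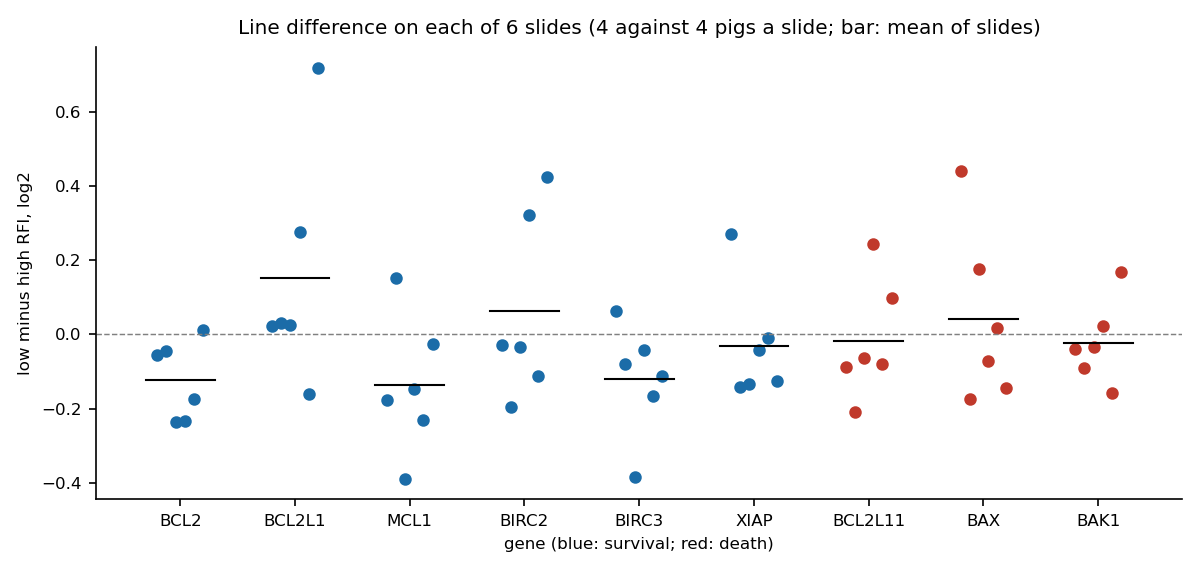
Line difference (low minus high RFI, log2 scale) of each gene on each of the 6 slides, where 4 pigs of each line were compared, with the mean over slides as a bar. MCL1, BCL2, BIRC3 and XIAP were below 0 on 5 of 6 slides, and no gene kept one sign on all slides.

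Spots that the files list under other names but that hold the same bases gave a further reading of several genes. A spot sharing 54 bases with the BCL2L1 probe correlated with it at 0.97 across pigs and had a line difference of 0.18 (SE 0.15). Another, identical to the BCL2L1 spot that was not retained, correlated with the BCL2L1 value at 0.83 and differed by 0.15 (SE 0.09). For MCL1, a spot sharing 52 bases with A_72_P035761 correlated with the gene value at 0.93 and differed by -0.07 (SE 0.07). Further BAX spots of the same 60 bases differed by 0.03 (SE 0.10) and 0.10 (SE 0.10) between the lines. The line differences of these spots had the sign of the gene they match. Limma called 0 of them, with adjusted P-values, in the order given, of 0.807 and 0.599 for BCL2L1, 0.839 for MCL1, and 0.974 and 0.84 for BAX. Spots sharing 57 bases with the XIAP probe A_72_P146916 and 54 bases with the BCL2L11 probe A_72_P206492 differed by -0.09 (SE 0.07) and -0.07 (SE 0.08). The identical BAK1 spots correlated with the probe O9678 at 0.68 and 0.52 only, at a median signal of 3.21 times the background for O9678, and differed by 0.00 (SE 0.05) and -0.05 (SE 0.06).

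Over the 48 pigs a gene value spanned up to 2.11 on the log2 scale, and the differences between pigs were compared with those of blood cell markers. Correlations were computed on deviations from the group means over 48 pigs, for 9 genes with the mean of each of 7 marker lists and with the median signal over background of the array, 72 relations in all. P-values came from 100000 permutations of pigs within groups, two-sided, and were BH adjusted over the 72. These points share the array, its centring and its signal level.

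BCL2L1 varied with the erythroid markers (7 of 9 measured), with a Pearson's r of 0.85 and a Spearman's rho of 0.85 (n = 48, adjusted permutation P-values of 8e-05 and 1e-04, from raw values of 1e-05, the smallest that the permutations can give). Without the 2 pigs farthest in the erythroid mean r was 0.82, and within slides it ran from 0.74 to 0.94. Among single markers, r with BCL2L1 was 0.87 for ALAS2, the first enzyme of heme synthesis in red cells, 0.85 for AHSP, the chaperone of alpha globin, and 0.82 for HBB, beta globin. It was only 0.21 for EPOR, the erythropoietin receptor. With the T cell markers the r of BCL2L1 was -0.60 (rho -0.58, adjusted permutation P-value 1.4e-04).

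BIRC2 followed the same axis, with an r of 0.78 to the erythroid mean (rho 0.82, adjusted permutation P-value 8e-05), 0.75 without the 2 farthest pigs and 0.64 to 0.94 within slides. The BCL2L11 value did so at 0.73 (rho 0.77, adjusted permutation P-value 8e-05), 0.67 without the 2 farthest pigs and 0.59 to 0.91 within slides. This came from the overlapping BCL2L11 pair, at 0.78 and 0.82, while O9714 was at -0.54. BIRC2 and BCL2L11 correlated with each other at 0.91 and with BCL2L1 at 0.76 and 0.77. They also correlated with the signal over background of the array, at -0.53 for BIRC2 and -0.61 for BCL2L11 (rho -0.52 and -0.62), and BCL2L1 at -0.42 (rho -0.46). The part of the signal level of the array in these relations was not tested.

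BIRC3 went the opposite way. Its r with the erythroid mean was -0.74 (rho -0.70, adjusted permutation P-value 8e-05), -0.68 without the 2 farthest pigs and -0.99 to -0.49 within slides. With the signal over background of the array its r was 0.07 (rho 0.01, adjusted permutation P-value 0.74). Both XIAP probes annotated to the XIAP transcript, A_72_P146916 and A_72_P443159, were at -0.72 and -0.78 with the erythroid mean and at 0.67 and 0.68 with the T cell mean, and correlated with each other at 0.88. The third XIAP probe, CUST_68_PI427286967, well above background on 47 of 48 arrays and at a median of 2.85 times the background, was at 0.36 with the erythroid mean and at -0.14 and -0.28 with the other XIAP probes. The XIAP value, which averages the 3, had an r of -0.51 (rho -0.49, adjusted permutation P-value 0.0016), -0.40 without the 2 farthest pigs and -0.74 to -0.39 within slides.

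Of the 7 marker lists, MCL1 varied most with the myeloid ones. With the monocyte mean (4 of 5 measured) r was 0.71 and rho 0.76 (adjusted permutation P-values 8e-05 and 1e-04), 0.73 without the 2 farthest pigs and 0.47 to 0.86 within slides. With the neutrophil mean (5 of 6 measured) it was 0.62 (rho 0.59, adjusted permutation P-value 8e-05), 0.58 without the 2 farthest pigs, and -0.02 to 0.88 within slides, so that it did not hold on every slide. Single markers ranged from 0.77 for CXCR2, the chemokine receptor of neutrophils, and 0.72 for LYZ, lysozyme, to -0.03 for MMP9. Each of the 7 MCL1 probes had a positive r with the monocyte mean, from 0.44 for O8707 to 0.68. The r of MCL1 with the signal over background of the array was 0.48 (rho 0.51, adjusted permutation P-value 0.0033). Weaker relations of MCL1 were -0.42 with the erythroid, 0.40 with the NK cell and 0.33 with the B cell mean (adjusted permutation P-values 0.014, 0.028 and 0.036).

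The r of BCL2 lay between -0.12 and 0.28 with the 7 lists and the signal over background of the array. This depended on the signal used, since with the background subtracted and the array median as centre its r was 0.515 with the signal over background, 0.38 with the neutrophil and 0.33 with the monocyte mean. BAX correlated with the T cell mean at 0.50 (rho 0.43, adjusted permutation P-value 0.0027), 0.39 without the 2 farthest pigs and 0.39 to 0.88 within slides. It also did so with the erythroid mean at -0.485 and the NK cell mean at 0.46 (adjusted permutation P-values 0.0043 and 0.007). The r of BAK1 was -0.45 with the T cell mean, 0.41 with the erythroid mean and -0.43 with the signal over background (adjusted permutation P-values 0.022, 0.015 and 0.0066). After quantile normalization its erythroid r was 0.08.

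**Figure D4:**
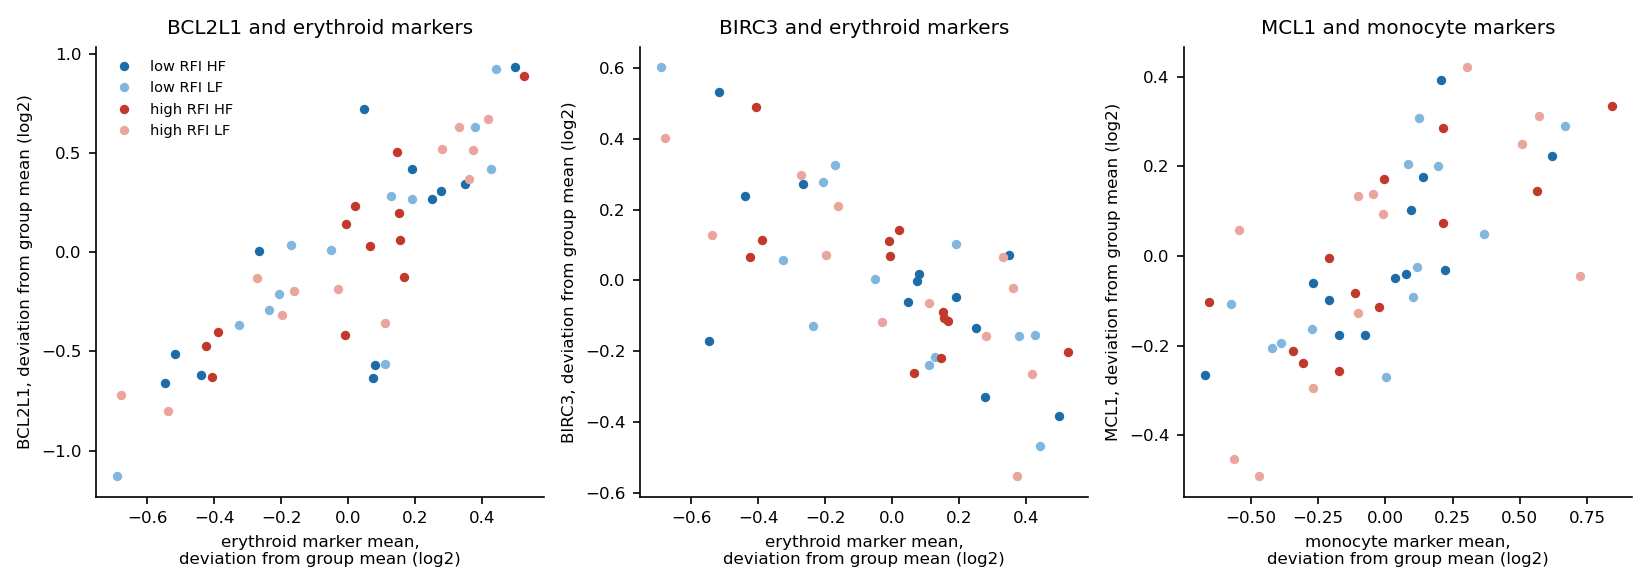
Deviation of BCL2L1, BIRC3 and MCL1 from the group mean (vertical, log2) against that of the mean of the erythroid or monocyte markers (horizontal, log2), with 1 point per pig coloured by group. Over 48 pigs r was 0.85 for BCL2L1, -0.74 for BIRC3 and 0.71 for MCL1, and pigs of all 4 groups lie along each trend.

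**Figure D5:**
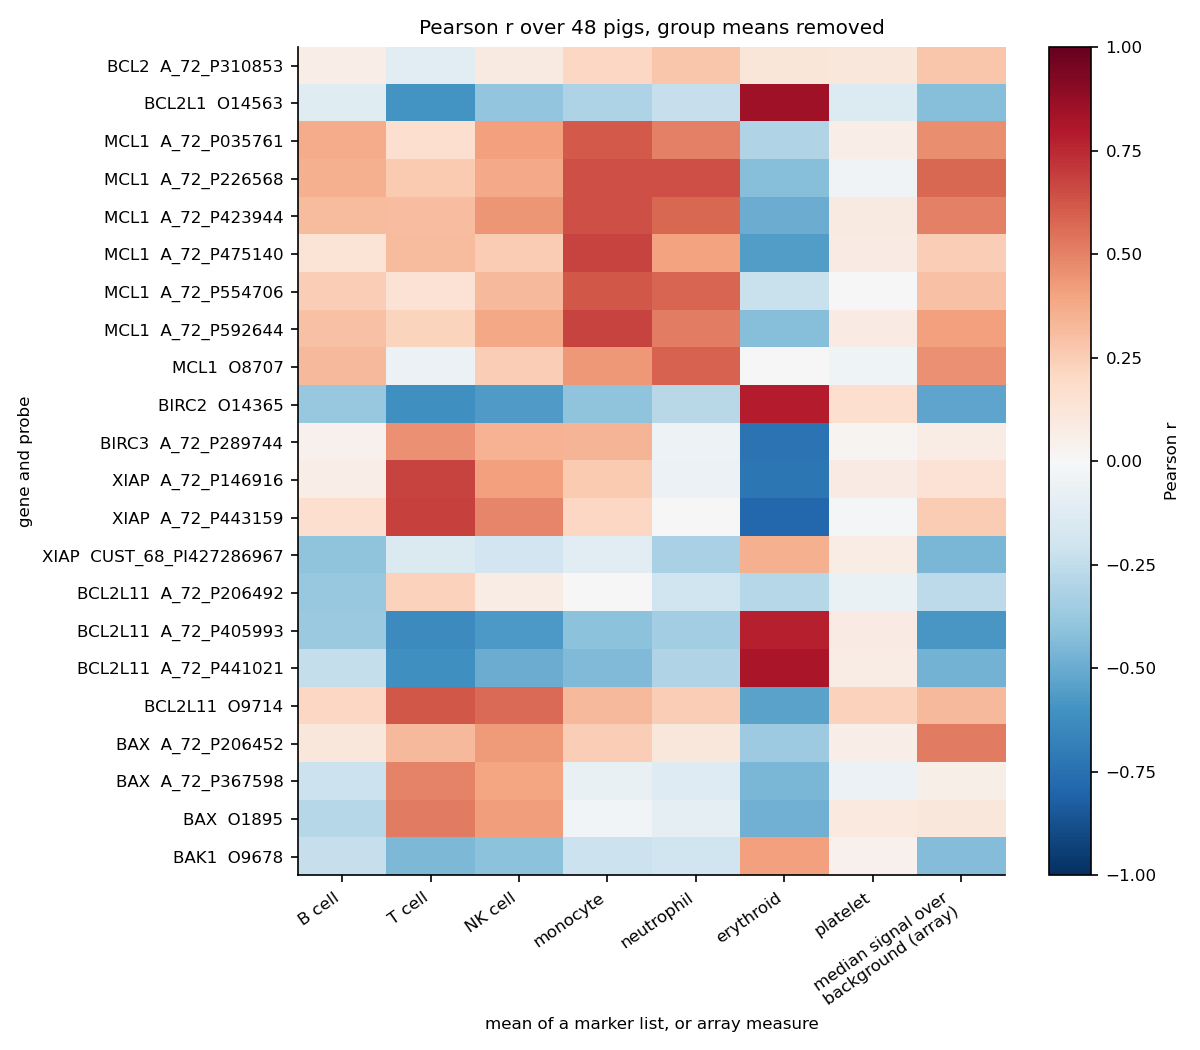
Pearson's r over 48 pigs, group means removed, of each of the 22 probes (rows) with the mean of 7 marker lists and with the median signal over background of the array (columns), from blue at -1 to red at 1. BCL2L1, BIRC2 and the overlapping BCL2L11 pair are red in the erythroid column, and BIRC3 and 2 of the XIAP probes are blue in it.

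The markers themselves differed in part between the lines, which stands beside the differences given above. By limma on gene values, 3 of 5 measured B cell markers were lower in low RFI pigs (among them MS4A1 by -0.36 and BLNK by -0.23), as were 1 of 4 monocyte markers (CD14, -0.47) and 1 of 5 neutrophil markers (CXCR2, -0.42), and 1 of 7 erythroid markers was higher (SLC4A1, 0.26), beside 2.73% of all gene values called. The monocyte and neutrophil lists were not uniform in sign, since CSF1R of the monocyte list was at 0.09 (SE 0.08) and MMP9 of the neutrophil list at 0.17 (SE 0.12), neither of them called. None of the 7 T cell, 5 NK cell and 4 platelet markers was called. The neutrophil mean ran from 2.34 to 4.87 in low RFI HF, 3.05 to 5.15 in low RFI LF, 3.28 to 5.45 in high RFI HF and 2.85 to 4.49 in high RFI LF pigs, and the monocyte mean from 0.54 to 1.83, 0.81 to 2.05, 0.84 to 2.34 and 0.83 to 2.12 in the same order. The part of these cells in the line difference of MCL1 was not tested.

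The genes most like each member across pigs, by Pearson's r of deviations from group means over 48 pigs and among 8129 other named genes, were CCNDBP1, UBE2R2 and EPB41 for BCL2L1, at 0.94, 0.93 and 0.91. For BIRC2 they were CSF2RB, EPHB3 and ANKDD1B, at 0.95, 0.95 and 0.94, and for BCL2L11 COL10A1, IRAK1 and IL17RB, at 0.95, 0.95 and 0.94. VASP, TXNRD1 and TRAF7 were nearest to MCL1, at 0.90, 0.90 and 0.89. For BIRC3 the nearest were EXD1, TMEM33 and TIPARP, at 0.84, 0.82 and 0.79, and for XIAP SECISBP2L, KPNA3 and PJA2, at 0.74, 0.74 and 0.73. For BAK1 they were PLEKHA6, ACRV1 and PTPN12, at 0.74, 0.72 and 0.70. The likeness of the nearest gene was lowest for BAX, with PFDN6, DYNC1LI2 and PHF6 at 0.62, 0.59 and 0.59, and BCL2, with GATA1, BOK and UBE2D3 at 0.59, 0.55 and 0.54.

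Of 47 other genes of the apoptosis pathway 28 were measured, and 0 of them were called by limma for line, diet or interaction, beside 2.73%, 0% and 0% of all gene values. The numbers at an unadjusted P-value under 0.05 were 2, 0 and 1, beside 11.5%, 1.61% and 2.25% of all gene values. The median line difference was 0.00, with 16 positive and 12 negative, beside a median of 0.02 over all gene values. BCL2A1, a survival member of the BCL2 family, ran from 2.32 to 3.35 in low RFI HF, 2.57 to 3.79 in low RFI LF, 2.08 to 3.62 in high RFI HF and 2.16 to 3.19 in high RFI LF pigs. Its line difference was 0.23 (SE 0.11, P-value 0.044, adjusted P-value 0.403 by limma), with a sign opposite to that of MCL1 and BCL2. The BH3-only genes BAD and BID had line differences of -0.01 (SE 0.06) and -0.12 (SE 0.07), and the death receptor FAS -0.19 (SE 0.10). The other gene at an unadjusted P-value under 0.05 for the line was XAF1, an antagonist of XIAP, with -0.40 (SE 0.16, adjusted P-value 0.227 by limma). Its difference was -0.08 (SE 0.22) in HF and -0.72 (SE 0.22, adjusted P-value 0.188 by limma) in LF pigs, with an interaction of 0.64 (SE 0.32, adjusted P-value 0.892). For the interaction the gene at an unadjusted P-value under 0.05 was BCL2L15, with -0.44 (SE 0.22, adjusted P-value 0.892 by limma). XAF1 and BCL2L15 were named after their values were seen.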

How the data were processed

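The authors deposited the scanner intensity of each spot and, for the spots retained after quality filtration, log2 values. The submitters' processing notes name R 3.0.2. On 47 arrays the deposited log2 value matches, within 1e-06, the median pixel intensity on the log2 scale after centring each array on its retained spots, with no background subtracted. The column of high RFI HF replicate 1 repeats 2.71 in 37090 of 37113 entries and was rebuilt from its scanner file. No retained spot of the list was saturated.

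A linear model of the 4 group means with contrasts for line, diet and interaction, as in the methods, was fitted to 37113 probes and to 26924 gene values (mean of the probes of a gene name) with limma 3.58.1 in R 4.3.3, with BH adjustment over all of them. The procedure was tested on simulated data. Python 3.11.15 with numpy 2.4.6, pandas 2.3.3 and matplotlib 3.10.9 served for other steps. Genes and lists were chosen with earlier results of these data known. The text names the genes of the list, BCL2A1, BAD, BID, FAS, a further gene that is not reported here, other apoptosis genes past an adjusted P-value of 0.05, and the 3 named genes most like each. The permutation P-values of correlations were added after seeing the data. The alternatives were other signals and normalizations, spot filters, blocks, probe choices, the analysis of variance, the column as deposited and each pig left out. Pigs are the replicates, 1 array each, and their number limits the precision. The files name no genome build, so no coordinates are given.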

Additional observations from a re-analysis of the deposited data

Results flagged for a closer look

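Each of 3 spots named for genes of the list was not retained by the authors and entered no main comparison, although the scanner software called it well above background on nearly all of the 48 arrays. The BCL2L1 spot A_72_P035621 was so on 47 arrays, at a median of 2.09 times the local background, and its mean differed by 0.08 on the log2 scale between low and high RFI pigs. The MCL1 spot A_72_P518010 was well above background on 48 arrays, at 5.85 times the local background. Its line difference was 0.01, at -0.85 ± 0.18 in the low and -0.86 ± 0.26 in the high RFI line (SD, n = 24 each), beside -0.18 to -0.10 on the retained MCL1 probes, although it correlated with the MCL1 value at 0.84 across pigs. The XIAP spot O9501 was well above background on 48 arrays, at 4.74 times the local background, and differed by -0.02. When all non-control spots were fitted, limma called 0 of the 25 spots of the list for the line, with a lowest adjusted P-value of 0.342. How many of all non-control spots this fit called was not counted. The line difference was then -0.12 for MCL1 (P-value 0.0769) and 0.12 for BCL2L1 (P-value 0.335).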

How the results depend on the processing

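The number of probes of the list called was 0 under each of 61 alternatives for the line, 13 for the diet and 13 for the interaction. By limma, the lowest adjusted P-values were 0.111, 0.759 and 0.762, and at most 6 probes had an unadjusted P-value under 0.05 for the line. The share of all probes under that alternative was not counted, so that nothing can be read from this maximum. The line difference of MCL1 ranged from -0.16 to -0.10, that of BCL2 from -0.29 to -0.10 and that of BIRC3 from -0.22 to -0.10, without a change of sign. The ends at -0.29 and -0.22 came from the faulty deposited column of high RFI HF replicate 1. With each pig left out in turn, BCL2 ran from -0.145 to -0.103 and BIRC3 from -0.147 to -0.098. The values of BCL2 with the background subtracted are given above. The BCL2 minus BAX difference ranged from -0.31 to -0.13. With the background-corrected signal centred on the median or scaled to the 75th percentile, the XIAP interaction was -0.0063 and -0.0151. With spots well above background on every array, the XIAP diet difference was -0.0172, and with the brightest probe those of BCL2L11 and XIAP were -0.0119 and -0.0384. When high RFI HF replicate 1 kept its deposited column, which repeats 2.71 in 37090 of 37113 entries, the line difference was -0.10 for BAX and -0.0932 for BIRC2. The diet difference was then -0.10 for BCL2L1, 0.0378 for BAX, 0.13 for BAK1 and 0.0752 for BIRC3, and the interaction -0.28 for BAK1 and -0.23 for XIAP. Without that pig the MCL1 diet difference was 0.001. Leaving out 1 pig at a time gave line differences of BCL2L11 from -0.0438 to 0.0067, positive without low RFI HF replicate 3 (0.0041) or 5 (0.0062), low RFI LF replicate 1 (0.0067) or high RFI LF replicate 10 (0.0034). For BAK1 they ran from -0.0377 to 0.0075, positive only without high RFI LF replicate 7 (0.0075). Without 1 pig BIRC2 ran from 0.0279 to 0.0958, BAX from 0.0156 to 0.0652 and XIAP from -0.0606 to -0.0168, each without a change of sign or a call. All these values that changed sign had adjusted P-values of 0.752 to 1. Those with the deposited column rest on a repeated value in place of the signals of that pig. For the others the cause was not tested. Under 3 other signals the relations of BCL2L1, BIRC2, BCL2L11, BIRC3 and XIAP with the erythroid and of MCL1 with the monocyte and neutrophil markers kept their sign, with r of XIAP from -0.70 to -0.41, whereas that of BCL2 with the erythroid markers went from 0.12 to -0.18. The replicate numbers were not taken as pairs, since not every same-numbered pair correlated above 0.1 (44 of 72, median 0.20, from -0.60 to 0.71). The median was 0.09 for other pairs of a slide and -0.04 across slides, and 15 of 48 pigs correlated best with their own number, a hint from the data and not the design. With the replicate number as a block, 1496 of all probes were called for the line against 1027 without it, and 0 probes of the list. Dim probes limit what is seen, since BCL2, BAK1, BIRC2, 2 of 3 BAX probes, the BCL2L11 probe A_72_P206492 and the XIAP probe CUST_68_PI427286967 had medians of 2.85 to 4.03 times the local background.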
